A study of Rattus norvegicus with 6 samples.

Results

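The genes described here encode the proteins of the elastic fibre and the fibulin family, 10 genes chosen by symbol from a fixed list: Eln, Fbn1, Fbn2, Mfap4, Mfap5, Fbln1, Fbln2, Fbln5, Efemp1 and Efemp2. Of these 10, 9 had a row among the 17093 genes with a value, 8 were above 0 in at least 1 library, and 6 reached the level required for testing. RNA was sequenced from cultured nucleus pulposus cells, which fill the soft centre of the spinal disc. They were primary cells of male rats at passages 3 to 6. The 3 serum-starved libraries came from cells held for 48 h without fetal bovine serum. The other 3 libraries were controls from cells held for 48 h with 10% serum. No genotype, strain or animal age is given in the labels, and they do not state whether the libraries stand for different animals, pools of animals or culture dishes. The p-values therefore reflect the spread between these libraries alone, some or all of which may be technical.

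An elastic fibre has an inner core of cross-linked elastin laid down on a sheath of fibrillin microfibrils. Fibulins and microfibril-associated proteins carry tropoelastin, the soluble elastin precursor, to the microfibrils, and lysyl oxidases then cross-link it. In the intervertebral disc, elastic fibres are known mostly from the lamellae of the annulus fibrosus and, more sparsely, from the nucleus pulposus. Fibulins also occur in matrices without elastin, where they bind fibronectin, proteoglycans and basement membrane proteins.

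The deposited values are treated as FPKM, a measure per transcript length and library size, so levels of different genes can be compared per length. They summed to between 447788 and 473452 in serum-starved libraries and between 522165 and 530095 in control libraries, and the depth in reads is unknown. In bulk RNA, a change in the share of one cell type and a change in RNA per cell cannot be told apart. Of 14 nucleus pulposus and notochord markers, 7 reached 1 in 3 or more libraries. The summed value of the list was 106 to 116 in serum-starved libraries and 269 to 312 in control libraries. Of these 7, 1 rose and 6 fell. Of all tested genes, 31.7% rose and 29.4% fell, to be set beside every marker count here. Pax1, a transcription factor gene of the disc, averaged 51.2 ± 5.02 in serum-starved and 27.5 ± 3.43 in control cells, whereas Acan, the gene of the large cartilage proteoglycan aggrecan, averaged 3.05 ± 0.333 in serum-starved and 77.5 ± 28.1 in control cells (SD, n = 3 each). The other markers that fell were Slc2a1, Sox9, Foxf1, Krt8 and Car12. Car12 reached the level for testing only through the controls, at 1.65, 1.4 and 2.24, against 0.04, 0.09 and 0.02 in serum-starved libraries. Col2a1, the cartilage collagen gene, was at or below 0.06, Krt18 was listed at 0, and T, Shh and Krt19 are not analysed here. Smooth muscle and pericyte markers summed to 1047 to 1150 in serum-starved libraries and 571 to 787 in control libraries, with 4 of 7 tested higher and 2 lower. Acta2 (mean 554 in serum-starved and 142 in control cells) and Tagln (378 and 223) had the highest means. The 2 that fell were Des (mean 12.9 in serum-starved and 125 in control cells) and Cspg4 (37.5 and 108). Annulus, tendon and fibroblast markers, without Tnmd, which is not analysed here, summed to 3293 to 3370 in serum-starved libraries. In control libraries they summed to 2769 to 3153, with 3 of 6 tested higher and 1 lower. Col1a1 made up most of that sum, with a mean of 2697 in serum-starved and 1799 in control cells. The marker that fell was Thy1, with a mean of 297 in serum-starved and 921 in control cells. Endothelial markers, of which Cdh5 and Kdr are not analysed here, summed to at most 1.19 in any library. Of the macrophage and leukocyte markers, Ptprc, Aif1 and Itgam are not analysed here. The others summed to 10.6 to 14.2 in serum-starved and 23.5 to 29.9 in control libraries, with 1 of 2 tested higher and 1 lower. The part of such cells in the results that follow was not tested.

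Among the 7024 genes that passed the test, control replicate 3 was the control nearest to the serum-starved mean for 43.4%, against 25.1% for control replicate 1 and 31.5% for control replicate 2. Pearson correlation of log2(value + 1) across the tested genes, which are not independent replicates, did not set it apart from control replicate 2, at 0.9073 to 0.9181 with the 3 serum-starved libraries, against 0.9058 to 0.9198 for control replicate 2. It was the nearest control for 6 of the 8 members above 0, namely Fbn1, Fbln1, Fbln2, Fbln5, Efemp1 and Efemp2.

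The fibulins moved in both directions in serum-starved cells. Fbln5 rose 7.55-fold and Fbln1 3.01-fold, Fbln2 was 1.92-fold lower and Fbn1 1.20-fold lower, while Efemp2 and Mfap5 did not pass the test. Thus 2 of the 6 tested members rose and 2 fell. Across all 11493 tested genes, 61.1% changed, 31.7% up and 29.4% down, by the same rule (limma, Benjamini-Hochberg adjusted p no higher than 0.05), so the members' counts are close to the background. At a rise of at least 2-fold on the log2(value + 1) scale, 2 members passed, against 4.17% of all tested genes. The median log2 fold change, serum-starved minus control, was 0.18 over the tested members and 0.03 over all tested genes.

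**Figure D1:**
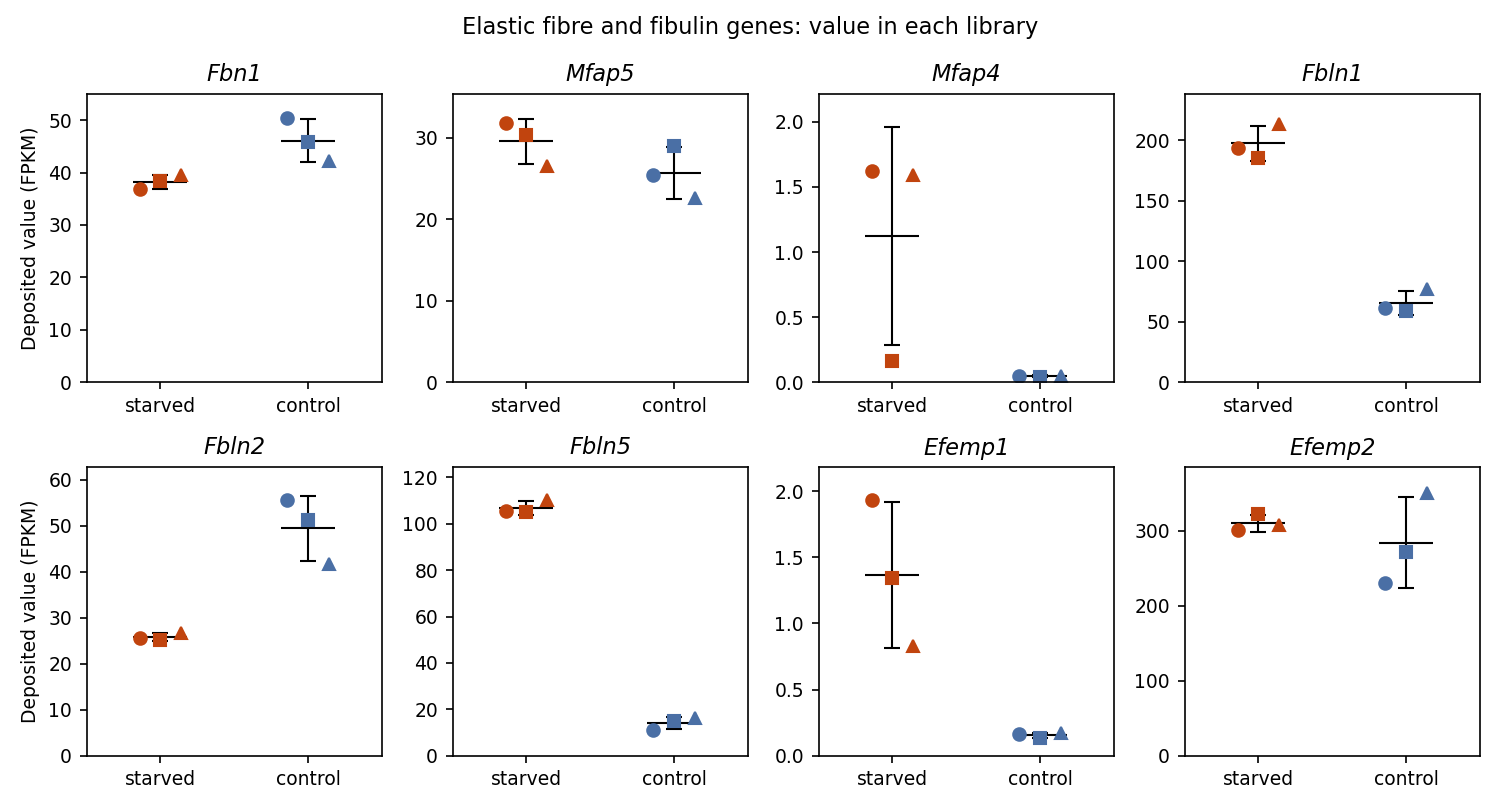
Deposited value (FPKM, linear axes from 0) of the 8 members above 0 in each library, serum-starved in orange and control in blue; circles, squares and triangles are replicates 1, 2 and 3, and the bar and whiskers give the mean and SD (n = 3). Among the tested members, Fbln1 and Fbln5 lie wholly above, and Fbln2 and Fbn1 wholly below, their controls. The untested Mfap4 and Efemp1, at low values, also lie wholly above their controls.

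Elastin itself, the core protein, gave no usable value. Eln (gene ID 25043) was listed at 0 in all 6 libraries, as were 409 genes in total. Such zeros can be failed estimates. Atp5f1, a mitochondrial ATP synthase subunit gene that every cell uses, chosen as an example with its values known, likewise stood at 0 throughout. Zeros were not confined to such genes. Hprt1, also chosen with its values known, had 12.35, 10.88 and 8.59 in serum-starved libraries and 0.15, 0 and 0 in control libraries. It passed the test as higher. Whether failed estimates underlie the low control values of Hprt1, Efemp1 or Mfap4 was not tested. No statement on the level of elastin RNA can be made from these values, and Eln has no pattern to which other genes could be likened.

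Of the fibulins tested, the one with the largest change was Fbln5 (gene ID 29158), whose protein binds tropoelastin and cell-surface integrins and whose loss in mice leaves elastic fibres disorganised. Its value was 105.29, 104.88 and 110.28 in serum-starved libraries and 11.14, 15.16 and 16.17 in control libraries. All 3 serum-starved values lay far above the highest control, and the spread within either group was small next to the gap. Non-overlapping groups with the serum-starved one higher were seen for 35.7% of all tested genes. The means were 107 ± 3.01 in serum-starved and 14.2 ± 2.66 in control cells (SD, n = 3 each). The log2 fold change was 2.85 ± 0.121 (SE), with a 95% interval of 2.57 to 3.12 (limma, Benjamini-Hochberg adjusted p = 5.68e-07).

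Fbln2 (gene ID 282583) changed the other way. Its protein joins fibrillin microfibrils, fibronectin and basement membrane components. Values were 25.55, 25.05 and 26.78 in serum-starved libraries and 55.5, 51.19 and 41.6 in control libraries, without overlap. Groups that do not overlap, with the serum-starved one lower, were seen for 32.5% of all tested genes. The means were 25.8 ± 0.89 in serum-starved and 49.4 ± 7.12 in control cells (SD, n = 3 each), a log2 fold change of -0.90 ± 0.103 (SE; limma, Benjamini-Hochberg adjusted p = 0.000126).

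Because Fbln5 and Fbln2 are the tested fibulins with the largest rise and the largest fall, their RefSeq promoter windows (GRCr8, 250 bases before to 50 after the start of the gene) are shown, 5′ to 3′ on the strand of the gene. Fbln5 lies at chr6:126742657-126742956 on the minus strand and Fbln2 at chr4:125261409-125261708 on the plus strand. Capitals mark GGGCGG on either strand, the GC box. It occurs once in the Fbln5 window, at -196 to -191 from the start, and 3 times in that of Fbln2, the nearest at -59 to -54.
Fbln5: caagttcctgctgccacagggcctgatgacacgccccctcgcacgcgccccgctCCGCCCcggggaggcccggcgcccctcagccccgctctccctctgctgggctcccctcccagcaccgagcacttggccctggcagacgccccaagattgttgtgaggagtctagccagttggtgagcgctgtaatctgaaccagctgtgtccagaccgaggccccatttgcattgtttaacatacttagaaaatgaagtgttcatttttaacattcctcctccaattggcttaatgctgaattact
Fbln2: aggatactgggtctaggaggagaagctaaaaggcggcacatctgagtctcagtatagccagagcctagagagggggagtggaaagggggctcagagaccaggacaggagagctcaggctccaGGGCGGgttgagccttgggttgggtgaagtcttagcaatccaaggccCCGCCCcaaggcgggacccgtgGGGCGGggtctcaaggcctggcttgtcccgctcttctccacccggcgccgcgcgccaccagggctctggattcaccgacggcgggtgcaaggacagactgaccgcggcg
Both windows lack 4 other motifs searched on both strands: the CArG box bound by serum response factor, TGANTCA of AP-1, GTAAACA of FOXO factors and the TATA box TATAAA. Among 33469 RefSeq windows of the same length, 33.1% hold a GC box, 1.64% a CArG box, 7.33% TGANTCA, 3.78% GTAAACA and 14.2% TATAAA. The GC content was 58.3% for Fbln5 and 64.7% for Fbln2, with a median of 51.7% over all windows. Windows were found for 7 of the 10 members. Among the other 5, Efemp1 holds TGAATCA and 1 GC box, and Efemp2 holds 5 GC boxes, of which 2 pairs overlap. A match describes the letters only, and its absence covers only this window.

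Fbln1 (gene ID 315191) encodes a fibulin that binds fibronectin and basement membranes. It stood at 193.54, 185.7 and 213.3 in serum-starved libraries and at 61.27, 58.57 and 76.99 in control libraries. The lowest serum-starved value exceeded the highest control value. Means were 198 ± 14.2 in serum-starved and 65.6 ± 9.95 in control cells (SD, n = 3 each), and the log2 fold change was 1.58 ± 0.107 (SE; limma, Benjamini-Hochberg adjusted p = 6.88e-06). Its transcript variants, which differ at the 3' end, are summed in 1 value.

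Efemp2 (gene ID 293677), also called fibulin-4, tethers lysyl oxidase to elastin and is needed for elastic fibres in mice. It was the most abundant member in both groups. Values were 300.62, 322.01 and 307.52 in serum-starved libraries and 230.08, 272.39 and 350.37 in control libraries. The serum-starved values fell inside the control range, which was wide. The log2 fold change was 0.15 ± 0.136 (SE), with a 95% interval of -0.17 to 0.46 (limma, Benjamini-Hochberg adjusted p = 0.375). Without control replicate 3, which held the highest value, the log2 fold change was 0.31 and adjusted p = 0.0193, and without control replicate 1 it was 0.00 and adjusted p = 0.974.

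Efemp1 (gene ID 305604), or fibulin-3, was scarce. It had 1.93, 1.34 and 0.83 in serum-starved libraries and 0.16, 0.13 and 0.17 in control libraries, and was left untested because only 2 libraries reached a value of 1. Its groups did not overlap. The mean was 8.91-fold higher in serum-starved cells, a ratio that rests on control values of at most 0.17. With no filter on low values the log2 fold change was 1.01 ± 0.159 (SE; limma, Benjamini-Hochberg adjusted p = 0.00252), and it passed again without each library in turn.

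Without control replicate 3, the control nearest to the serum-starved mean for the most genes that passed, the log2 fold changes were 2.94 for Fbln5, 1.70 for Fbln1, -1.02 for Fbln2 and -0.32 for Fbn1, and these 4 members passed again.

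The make-up of the RNA of the 5 fibulins among the members, which leave out the partner gene Fbln7, differed between the groups. Here each library's share is taken of the summed value of the 5 fibulins Fbln1, Fbln2, Fbln5, Efemp1 and Efemp2, so a factor common to a library drops out. Fbln5 took 16.7% ± 0.206 of the sum in serum-starved and 3.42% ± 0.360 in control cells, and Fbln1 took 30.8% ± 1.66 in serum-starved and 15.9% ± 1.19 in control cells (SD, n = 3 each). Fbln2 took 4.02% ± 0.0868 in serum-starved and 12.3% ± 3.5 in control cells, and Efemp2 48.3% ± 1.89 in serum-starved and 68.3% ± 3.98 in control cells (SD, n = 3 each). The lower share of Efemp2 stands beside an Efemp2 value that did not pass the test. Efemp1 stayed below 0.31% in every library. No share overlapped between the groups, and each gave p = 0.1 in a two-sided exact permutation test (n = 3 each), also after adjustment over the 5 shares, which is the smallest p this design allows.

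**Figure D2:**
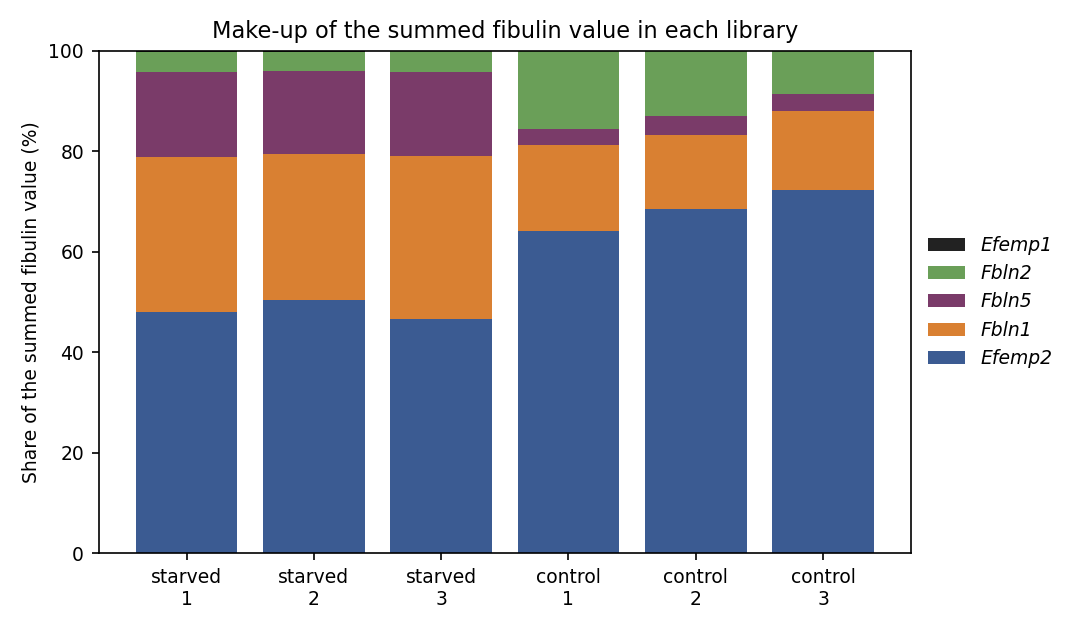
Share (%) of the summed FPKM of the 5 fibulins taken by each fibulin in every library, 1 stacked bar per library, serum-starved on the left. The Fbln5 and Fbln1 segments are wider in the 3 serum-starved libraries, and the Fbln2 and Efemp2 segments wider in the 3 controls; Efemp1 is too small to see.

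Of the 2 microfibril genes tested, Fbn1 fell and Mfap5 did not pass. Fbn1 (gene ID 83727) encodes fibrillin-1, the backbone of the microfibril. It had 36.89, 38.41 and 39.54 in serum-starved libraries and 50.33, 45.85 and 42.14 in control libraries. The groups were separate but close. The log2 fold change was -0.26 ± 0.0768 (SE; limma, Benjamini-Hochberg adjusted p = 0.0179). This call was lost with equal library sums (log2 fold change -0.07, adjusted p = 0.461), after quantile normalization (-0.14, adjusted p = 0.153), without serum-starved replicate 1 (adjusted p = 0.057) and without control replicate 1 (adjusted p = 0.0546).

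Equal library sums raised the median log2 fold change of all genes by 0.172, and against that median Fbn1 stood at -0.27. Fbn2, the other fibrillin gene of the list, is not analysed here.

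Mfap5 (gene ID 362429) encodes a small glycoprotein bound to fibrillin. It had 31.83, 30.35 and 26.48 in serum-starved libraries and 25.43, 28.98 and 22.6 in control libraries. The groups overlapped. The log2 fold change was 0.20 ± 0.104 (SE), with a 95% interval of -0.04 to 0.44 (limma, Benjamini-Hochberg adjusted p = 0.128). It passed with equal library sums (0.39, adjusted p = 0.0083), after quantile normalization (0.29, adjusted p = 0.0309) and without control replicate 2 (0.29, adjusted p = 0.0482).

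Mfap4 (gene ID 287382), whose protein binds both fibrillin and elastin, was barely detected. Serum-starved libraries had 1.62, 0.16 and 1.59, and control libraries had 0.05, 0.04 and 0.05. Serum-starved replicate 2 thus lay near the controls, though above all of them. Mfap4 was not tested, since 2 libraries reached a value of 1. With no filter its log2 fold change was 0.93 ± 0.306 (SE; limma, Benjamini-Hochberg adjusted p = 0.0463). That call was lost without serum-starved replicate 1 (adjusted p = 0.138) or 3 (0.14) and without control replicate 1 (0.108), 2 (0.112) or 3 (0.106). Without serum-starved replicate 2 the log2 fold change was 1.32 and adjusted p = 9.72e-05.

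The order of levels per length shifted within the group. In serum-starved cells it ran Efemp2, Fbln1, Fbln5, Fbn1, Mfap5, Fbln2, Efemp1, Mfap4. In control cells it ran Efemp2, Fbln1, Fbln2, Fbn1, Mfap5, Fbln5, Efemp1, Mfap4. Neighbouring genes had overlapping ranges for Mfap5 with Fbln2 and Efemp1 with Mfap4 in serum-starved cells, and for Fbln2 with Fbn1 in control cells. Fbln5 thus stood ahead of Fbn1, Mfap5 and Fbln2 in serum-starved cells and behind all of them in control cells. Values were also summed over the 9 members with a row, with Eln entering as 0. The sum was 697, 708 and 726 in serum-starved libraries and 434, 472 and 550.1 in control libraries. It was 1.46-fold higher in serum-starved cells (two-sided exact permutation p = 0.1, n = 3 each, the smallest possible). The members that differed most in mean value were Fbln1 (198 in serum-starved and 65.6 in control cells) and Fbln5 (107 and 14.2).

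Partner genes of the elastic fibre, taken from 5 lists, went both ways. Of 62 listed symbols, 38 were tested, 20 rose and 13 fell, leaving 5 that did not pass, while 31.7% of all tested genes rose and 29.4% fell. Their median log2 fold change was 0.23, against 0.03 over all tested genes. Of 8 cross-linking genes tested, 4 rose and 4 fell. The 4 genes that rose were Lox, the lysyl oxidase itself, Bmp1 and Tll1, related proteases of which BMP1 releases active lysyl oxidase from its precursor, and Atp7a, the copper pump that loads it.

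Lox averaged 1303 ± 61.7 in serum-starved and 614 ± 43.1 in control cells (SD, n = 3 each), a log2 fold change of 1.09. Tll1 rose by 1.47, Bmp1 by 1.05 and Atp7a by 0.53 on the same log2 scale. The other 4 of the 8 cross-linking genes, the lysyl oxidase-like genes, fell, where 29.4% of all tested genes fell. Loxl3 had a log2 fold change of -1.51, Loxl4 -0.84, Loxl1 -0.58 and Loxl2 -0.41. Loxl1, needed for elastin renewal in mice, averaged 16.8 ± 2.28 in serum-starved and 25.6 ± 1.80 in control cells (SD, n = 3 each). The highest limma Benjamini-Hochberg adjusted p among these 8 genes was 0.00366 (Loxl2).

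Among microfibril and assembly partners, 5 of 12 tested rose, 6 fell and 1 did not pass, where 31.7% of all tested genes rose and 29.4% fell. Fbln7, a further fibulin, averaged 13.5 ± 1.01 in serum-starved and 2.73 ± 0.392 in control cells (SD, n = 3 each), or 1.96 as a log2 fold change. Vcan, which encodes the large proteoglycan versican that binds fibrillin and fibulins, averaged 18.3 ± 0.240 in serum-starved and 66.3 ± 9.18 in control cells (SD, n = 3 each), or -1.79 as a log2 fold change. Adamtsl4, a fibrillin-binding protein gene, had -0.87, and Ltbp2, a relative of fibrillin that binds it, -0.86.

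Genes for enzymes able to degrade elastin or its scaffold rose in 4 of 4 tested cases of 11 listed, where 31.7% of all tested genes rose: Mmp2 by 2.48, Ctsl by 0.75, Ctsk by 0.54 and Mmp14 by 0.44 on the log2 scale. The macrophage-type elastase gene Mmp12 and the gelatinase gene Mmp9 were below 0.4 in every library and were not tested. Of 5 tested protease inhibitors (9 listed), 4 rose and 1 fell, beside 31.7% and 29.4% of all tested genes; 1 of the 4, Timp3, held its call in few alternatives. Cst3, which encodes the cathepsin inhibitor cystatin C, averaged 1069.9 ± 18.6 in serum-starved and 269.9 ± 19.4 in control cells (SD, n = 3 each), and Timp2 and Slpi each had a log2 fold change of 1.14. Timp3 (0.44) had overlapping groups and passed barely (limma, Benjamini-Hochberg adjusted p = 0.0491). Its call was lost in 11 of 16 alternatives, among them without serum-starved replicate 1 (adjusted p = 0.107) or 2 (0.15) and without control replicate 2 (0.0535) or 3 (0.11).

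Among genes listed as cell-surface receptors, 3 of 9 tested rose, 2 fell and 4 did not pass. Of all tested genes, 31.7% rose and 29.4% fell. The 3 that rose were Ctsa, Glb1 and Lgals3, and no tested integrin gene passed as higher. Lgals3 had a log2 fold change of 0.18 and passed barely (limma, Benjamini-Hochberg adjusted p = 0.0489). Its own call was not followed through the alternatives. Ctsa and Glb1, which encode the protective protein and beta-galactosidase that share a complex with neuraminidase, had log2 fold changes of 1.70 and 0.57. Neu1, the neuraminidase gene, had 0.15 ± 0.0788 (SE) and did not pass. Itga5, the fibronectin receptor subunit, fell by 1.21 on that scale. Itgb1 had -0.26, but 0.11 after quantile normalization, and its call was also lost with equal library sums (adjusted p = 0.429). It was lost, too, without serum-starved replicate 2 (adjusted p = 0.0624), serum-starved replicate 3 (0.0547), control replicate 1 (0.0773) and control replicate 2 (0.0809).

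**Figure D3:**
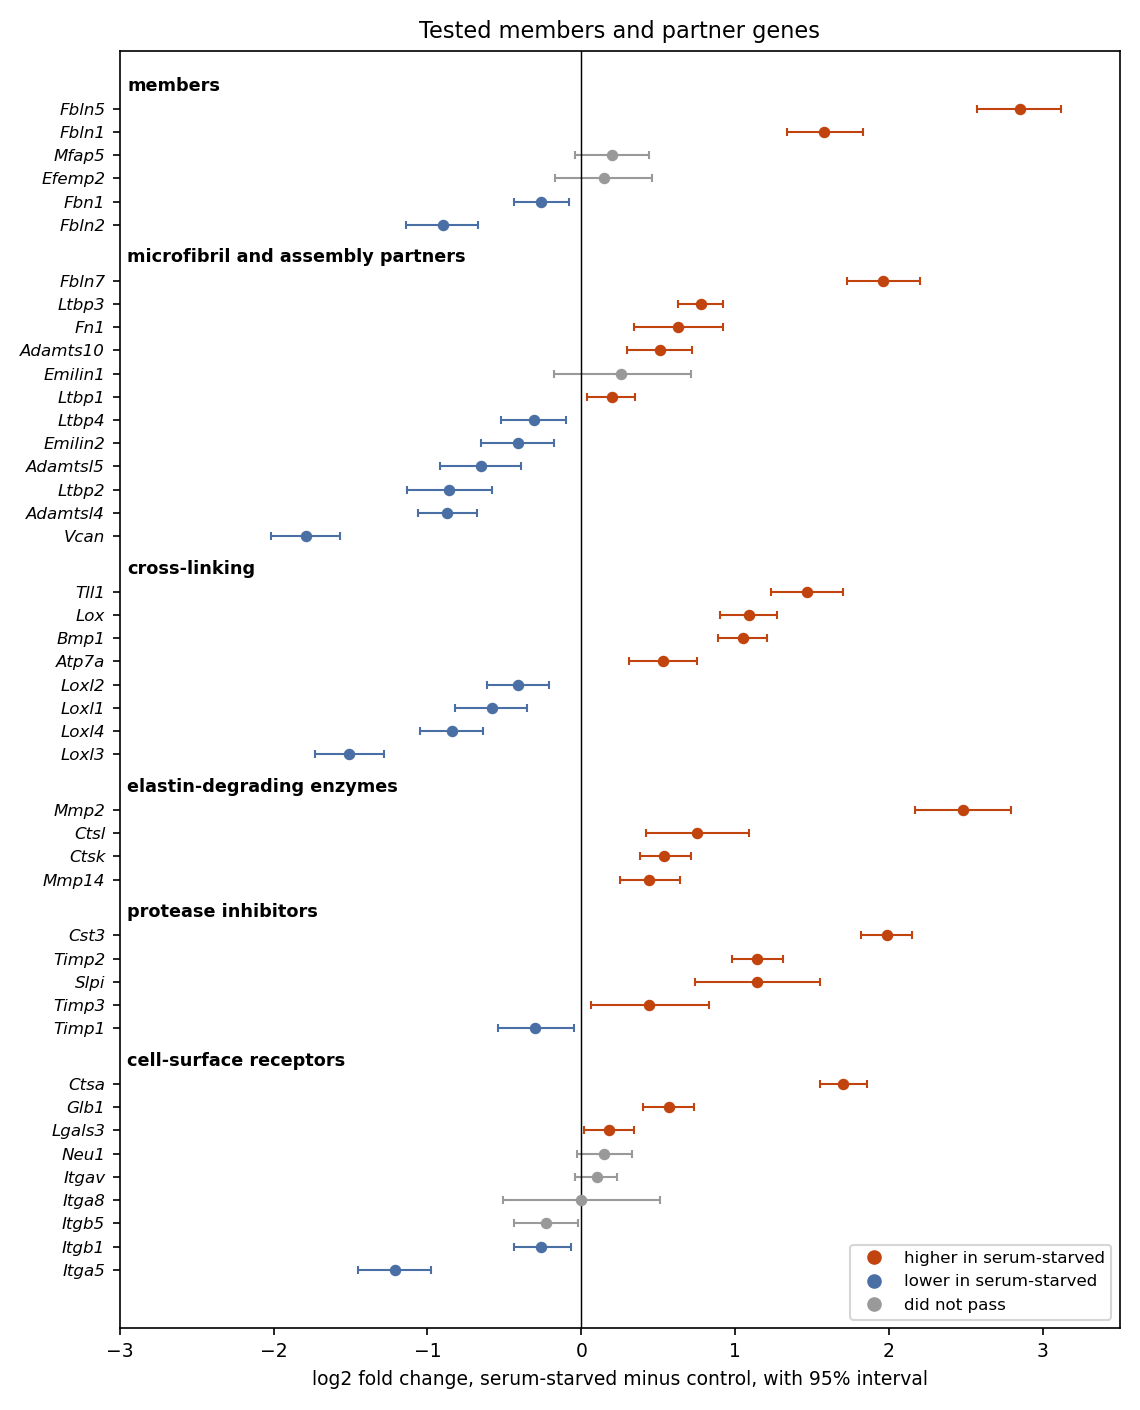
Log2 fold change (serum-starved minus control, log2(value + 1) scale) of the 6 tested members and 38 tested partner genes, with 95% intervals from limma; orange passed as higher, blue as lower, grey did not pass. Fbln5 at 2.85 stands furthest right and Vcan at -1.79 furthest left.

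Genes most like Fbln5 across the 6 libraries were Marcks, Sox4 and Gpx3. Likeness was the mean absolute difference of log2(value + 1) after centring each gene on its mean, and 8578 other genes were compared. It was 0.0916 for Marcks, which encodes a substrate of protein kinase C at the membrane, 0.11 for the transcription factor gene Sox4 and 0.119 for Gpx3, a secreted glutathione peroxidase. The values of Marcks were 45.04, 44.75 and 43.77 in serum-starved libraries and 4.13, 5.08 and 7.59 in control libraries. Likeness over 2 groups of 3 libraries mostly reflects a group difference of the same size.

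**Figure D4:**
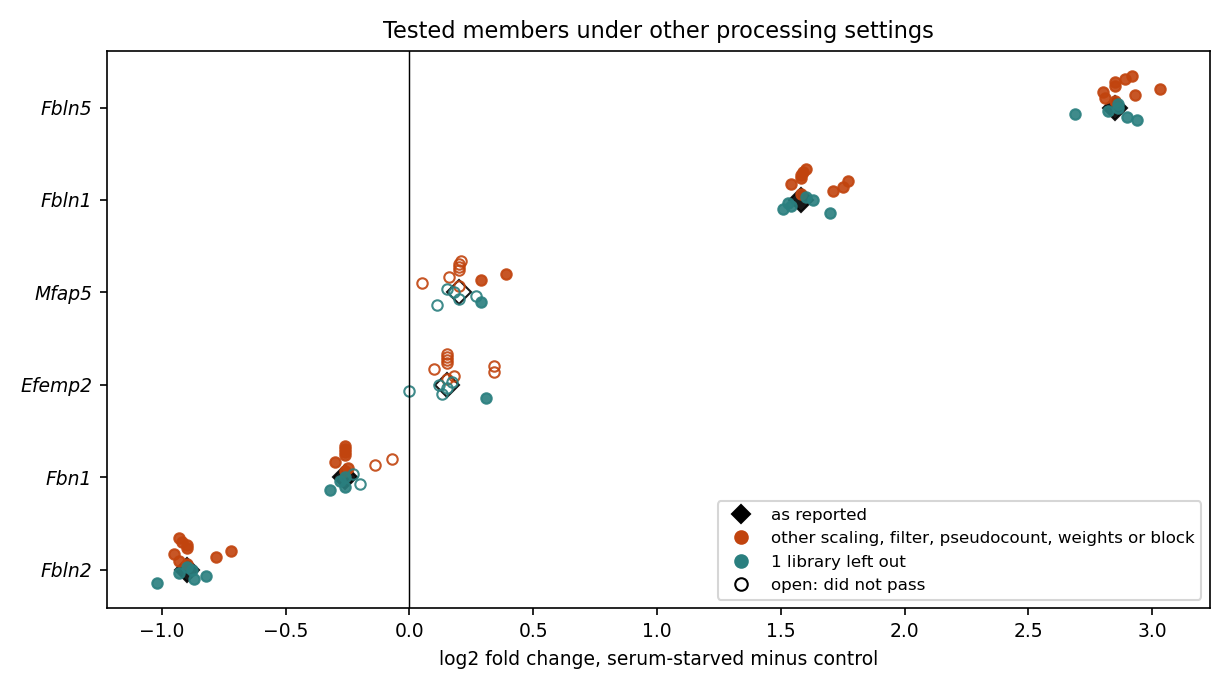
Log2 fold change (serum-starved minus control) of the 6 tested members as reported (diamonds), under other scaling, filter, pseudocount, weight or block settings (orange) and with 1 library left out (teal); open symbols did not pass. Fbln5 (2.69 to 3.03), Fbln1 (1.51 to 1.77) and Fbln2 (-1.02 to -0.72) passed in each alternative drawn.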

How the data were processed

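RNA was depleted of ribosomal RNA and reverse transcribed from random primers, per the labels' protocols. For each library the authors deposited a table of values per gene with 2 decimals, treated here as FPKM; no header states the unit. They are not whole and their sums differ between libraries, but TPM of a larger gene set remains possible. The submitters' processing notes list limma, DESeq2, StringTie, HISAT2 and bcl2fastq 2.0, with no role for each, and the mouse build mm10, although the gene identifiers are those of rat. Build, annotation and use of strand are thus uncertain, and no gene coordinates are given from the files. The lowest value above 0 was 0.01 in every library, the rounding step, so no worth of 1 read could be read from low values. At most 0.265% of values of at least 5 were equal in any pair of libraries, so no library was counted as a duplicate.

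Values were analysed as log2(value + 1), on which changes of low genes are understated. Genes reaching 1 in 3 or more of the 6 libraries (11493) entered limma 3.58.1 (R 4.3.3), fitted on treatment alone with an intensity trend and 4 residual degrees of freedom. A Benjamini-Hochberg adjusted p no higher than 0.05 counted as a change. The fit was tested on simulated data. Folds are ratios of mean values. Shares and sums used exact permutation tests (scipy 1.17.1). Members and lists were chosen with earlier results of these data known. The text accounts for all 10 members, of which Fbn2 is not analysed here, and names all tested cross-linking genes, up to 4 passing genes with the largest change in the other lists, and the 3 genes most like the tested member with the largest change; other genes were named after their values were seen. Promoter windows were matched by symbol to RefSeq. The alternatives tried were other pseudocounts, filters, scalings, library weights, a replicate block and leaving out each library.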

Additional observations from a re-analysis of the deposited data

How the results depend on the processing

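Fbln5, Fbln1 and Fbln2 kept their direction and passed in all 16 alternatives, with a highest adjusted p of 0.000864 (Fbln2). With no filter, and likewise with no filter and a pseudocount of 0.1, an alternative chosen after seeing the data, 4 members were higher, Mfap4 and Efemp1 being added. Over all genes, 3996 of 16684 were higher with no filter, and 3963 of 16684 with no filter and a pseudocount of 0.1. The number of members lower was 1 with equal library sums and after quantile normalization, and between 1 and 2 when 1 library was left out, since Fbn1 no longer passed. Itgb1 reversed to 0.11 after quantile normalization. The cause was not tested. Over all genes, equal library sums gave 5303 higher and 2327 lower (69.5% of calls higher), against 3640 and 3384 (51.8%) as deposited. The number of genes lower was otherwise 2794 to 3781, and the number higher 2651 to 4029. Partner genes higher numbered 17 to 22 and lower 10 to 14. The difference in the summed member value was 199 to 298 in the 8 alternatives run for it. These were median-ratio scaling, quantile normalization and leaving out each library, and equal library sums were not among them. The titles share replicate numbers, but the labels state no pairing. Deviations of same-numbered libraries from their group means correlated at 0.037, -0.162 and 0.101 across genes. With so few libraries these values cannot decide whether the libraries were paired. With the replicate block, 2 members were higher and 2 lower, and over all genes 3508 were higher and 3293 lower. The share of Fbn1 in the summed fibrillins was not run, as Fbn2 is not analysed here. Depth is unknown, so values near 0 (Mfap4, Efemp1) and zeros (Eln) have no counting limit.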
